A study of Mus musculus with 6 samples.

Results

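The 3 genes described here, Esrrb, Nr5a2 and Nr0b1, encode orphan nuclear receptors of mouse embryonic stem cells (ESCs), and H3K27 acetylation was measured over them before and after depletion of OCT4. They were chosen by earlier results from these same libraries: Nr0b1 was selected on having the largest fall in H3K27ac among named pluripotency genes, and the other 2 belong to the same family. The difference between IAA-treated and uninduced cells is therefore given for them as a description. Their peaks were part of a fit over all peaks, and nothing is read from the calls on them. Every H3K27ac peak overlapping a gene body extended by 20 kb on each side was taken, which gave 13 of the 31131 peaks. Of these, 9 belonged to Esrrb, 3 to Nr5a2 and 1 to Nr0b1. All 13 overlapped the gene body itself, and all 13 lay above the threshold of 0.5 RPKM (reads per kilobase of peak, scaled to library size), averaged over the uninduced or over the IAA libraries, that 26457 peaks passed. An OCT4 mark, set on peaks within 1 kb of a peak in published OCT4 ChIP-seq data, was carried by 5 of the 13. Among all peaks above the threshold, 17.6% carried it.

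Nuclear receptors are transcription factors that bind DNA through zinc fingers and recruit coactivators or corepressors through a ligand-binding domain, and orphan receptors are those first described without a known ligand. Esrrb (oestrogen-related receptor beta) is a core activator of the naive pluripotency network that binds an extended half-site. Nr5a2 (LRH-1) binds a closely related half-site, regulates Pou5f1, the gene that encodes OCT4, and can take the place of OCT4 in reprogramming factor cocktails. Nr0b1 (DAX1) lacks the usual DNA-binding domain and acts largely as a corepressor that docks on other receptors, NR5A2 among them. Acetylation of lysine 27 of histone H3 marks active promoters and enhancers.

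The cells were ZHBT-O4AID ESCs of strain 129SV. They were Oct4-/- and carried 3 transgenes, TetOFF Oct4, CAG Oct4AID and, for the degradation, CAG Tir1. Both endogenous Oct4 alleles are inactive in this line, doxycycline silences the wild-type Tet-OFF transgene, and the only OCT4 then left is a fusion to an auxin-inducible degron, expressed constitutively from the CAG promoter as is the plant F-box protein Tir1. All libraries came from cells kept on doxycycline in N2B27 with PD03, Chiron and mLIF. The uninduced group was left untreated and the other group received 500 μM indole-3-acetic acid (IAA) for 1.5 h, which directs the fusion to the proteasome. Each group held 3 chromatin immunoprecipitations, and no input, spike-in or IAA-treated line without the degron was analysed here. A direct effect of IAA and the loss of OCT4 therefore cannot be told apart in these libraries, nor can a lower amount of acetylation per cell be told apart from a lower share of cells that carried it. The study's own ChIP-qPCR of eGFP-AID ESCs found no H3K27ac change after IAA at the Klf4 and Prdm14 enhancers. It did not cover the receptor genes described here.

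Libraries held 31634480 to 39547452 reads. The share of reads inside peaks was 6.63% to 7.12% in uninduced and 4.05% to 5.15% in IAA libraries, and the median tested peak differed by -0.58 between the IAA and uninduced libraries on the log2 RPKM scale. IAA replicate 3 had the lowest share, and in all 13 peaks of the receptors it gave the lowest of the 3 IAA values. How much of each fall below belonged to this library-wide shift was not tested. The change of each receptor gene is therefore also given relative to the median peak. Most changes given for single peaks, and all those of listed genes, include the shift. Peaks were present at 6 of 6 naive ESC marker genes, and at 1 of 4 trophoblast (Hand1), 3 of 4 neural, 1 of 4 endoderm (Gata6) and 2 of 3 mesoderm markers.

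Sequences of the regions on which the results turn are given 5′ to 3′ on the plus strand of GRCm38.p6, in lower case with motif matches in capitals. The first 3 are 120 bases of the highest OCT4-marked peak of Esrrb and of Nr5a2 and of the single Nr0b1 peak, placed on a motif match where the peak had one and otherwise near its centre. The Esrrb stretch was thus placed on its match, and the capitals mark CAAGGTCA, the extended half-site bound by ESRRB and NR5A2. The last 2 regions were added after the matches and values were seen. They are a stretch of the Nr5a2 peak whose H3K27ac differed least between conditions, with overlapping matches to TTGTNATGC (core of the joint SOX2-OCT4 element) and ATGCNAAT (octamer) in capitals, and the RefSeq promoter of Nr0b1 up to its first exon, with the half-site AGGTCA in capitals.
Esrrb peak 8 (intron 3, chr12:86503497-86503616): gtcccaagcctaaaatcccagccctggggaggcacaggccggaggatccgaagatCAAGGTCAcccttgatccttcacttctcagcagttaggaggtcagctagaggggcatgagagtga
Nr5a2 peak 3 (intron 1, chr1:136952696-136952815): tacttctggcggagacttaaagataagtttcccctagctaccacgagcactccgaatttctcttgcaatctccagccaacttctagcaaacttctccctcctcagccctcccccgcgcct
Nr0b1 peak 1 (coding part of exon 1, chrX:86192300-86192419): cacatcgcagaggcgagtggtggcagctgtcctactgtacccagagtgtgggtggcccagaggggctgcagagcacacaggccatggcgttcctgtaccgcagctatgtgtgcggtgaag
Nr5a2 peak 1 (coding part of exon 5, chr1:136940721-136940840): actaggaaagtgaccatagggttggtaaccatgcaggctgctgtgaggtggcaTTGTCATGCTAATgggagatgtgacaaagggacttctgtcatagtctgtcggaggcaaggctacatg
Nr0b1 promoter (chrX:86191525-86191763): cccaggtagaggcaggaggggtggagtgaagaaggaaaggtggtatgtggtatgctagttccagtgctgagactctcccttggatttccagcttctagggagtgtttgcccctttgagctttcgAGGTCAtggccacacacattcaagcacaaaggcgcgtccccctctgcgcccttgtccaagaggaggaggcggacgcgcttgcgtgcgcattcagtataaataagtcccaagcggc

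The 3 genes started from different levels of H3K27ac and ended further apart. Taking the length-weighted mean over the peaks of a gene, Esrrb (ENSMUSG00000021255.17, chr12:86361117-86521628, plus strand) stood at 6.97, 6.37 and 6.43 RPKM in the 3 uninduced libraries and at 4.63, 4.39 and 3.13 RPKM after IAA. Nr5a2 (ENSMUSG00000026398.14, chr1:136842571-136960448, minus strand) stood at 3.25, 3.14 and 2.68 RPKM before and at 2.05, 1.72 and 1.25 RPKM after. Nr0b1 (ENSMUSG00000025056.4, chrX:86191764-86195947, plus strand) stood at 2.36, 2.25 and 2.003 RPKM before and at 0.820, 0.620 and 0.369 RPKM after. In each gene every IAA library lay below every uninduced library, as was so for 84.6% of the 14220 protein-coding genes with a tested peak.

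Expressed as group means, Esrrb went from 6.59 ± 0.329 to 4.05 ± 0.804 RPKM (SD, n = 3 in each group), a log2 change of -0.72. Nr5a2 went from 3.02 ± 0.305 to 1.67 ± 0.403 RPKM, a log2 change of -0.88. Nr0b1 went from 2.21 ± 0.185 to 0.603 ± 0.226 RPKM, a log2 change of -1.94, and the ratio of these means was 3.66-fold. Log2 changes of genes are differences between the mean log2 values of the groups, with no pseudocount. Relative to the median peak these log2 changes were -0.14 for Esrrb, -0.30 for Nr5a2 and -1.36 for Nr0b1, so the greater part of the values at Esrrb and Nr5a2, and the smaller part at Nr0b1, equalled the shift of the median peak.

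Esrrb was among the most acetylated genes, above 98.8% of the 14220 genes in uninduced cells, while Nr5a2 was above 56.9% and Nr0b1 above 28.7% of them. Levels compared between genes, here and below, were not adjusted for gene copy number, and Nr0b1 alone of the receptor genes described lies on chromosome X. Ordered by the size of the fall, Nr0b1 ranked 1, Nr5a2 558 and Esrrb 1831 of the 14220. The choice of Nr0b1 by its fall favoured its rank in advance, so nothing is read from it. The next largest fall after that of Nr0b1 was -1.76 on the log2 scale. This order depended on the scale, and with a pseudocount of 1 the ranks were 8 for Nr0b1, 515 for Nr5a2 and 516 for Esrrb. Nr0b1 was also 1 of 3760 genes with a single peak, where no averaging over peaks takes place.

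**Figure D1:**
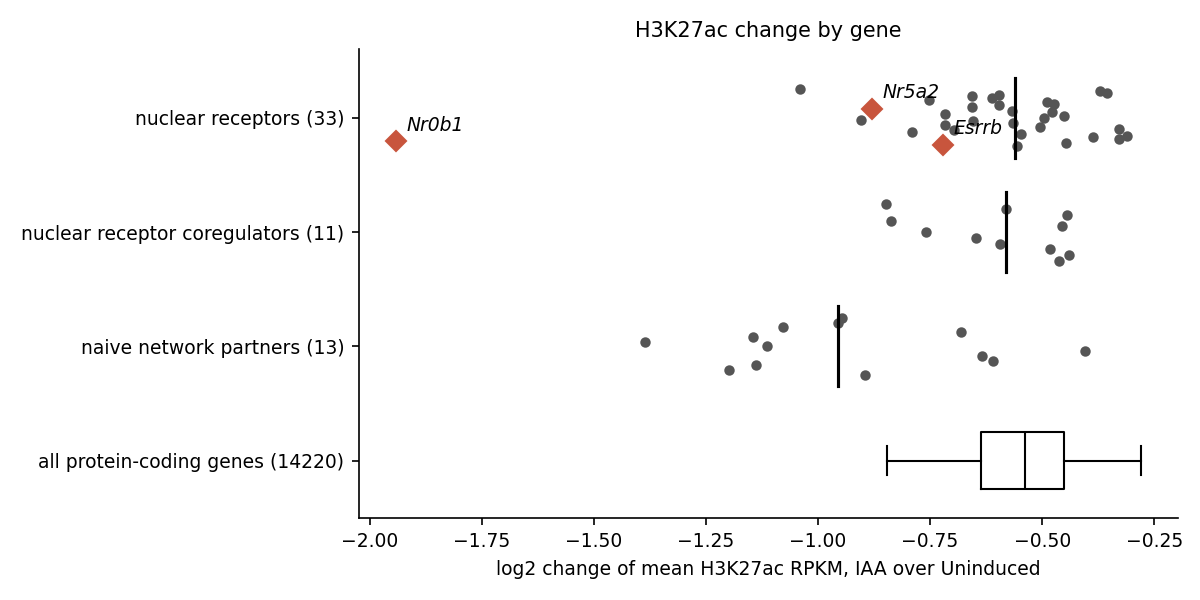
Log2 change of mean H3K27ac (x axis, IAA over uninduced RPKM) for each gene with a tested peak, in rows for the nuclear receptors, their coregulators and the naive network partners; diamonds are Esrrb, Nr5a2 and Nr0b1, vertical lines are medians without these 3, and the box of all 14220 genes spans the quartiles with whiskers at the 5th and 95th percentiles. Nr0b1 at -1.94 lies left of every other point shown, which its choice by this fall favoured. Nr5a2 at -0.88 and Esrrb at -0.72 lie among the other receptors.

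Ratios between the genes within a library leave out any scaling that all peaks of that library share. The level of Esrrb was 2.14, 2.03 and 2.40 times that of Nr5a2 in the uninduced libraries and 2.26, 2.55 and 2.52 times in the IAA libraries, and these ranges overlapped. The level of Nr5a2 was 1.38, 1.39 and 1.34 times that of Nr0b1 before and 2.49, 2.78 and 3.37 times after IAA, without overlap. Esrrb stood 2.95, 2.83 and 3.21 times above Nr0b1 before and 5.65, 7.08 and 8.49 times above it after. The order Esrrb, Nr5a2, Nr0b1 thus held in all 6 libraries, with neighbouring genes separated beyond the spread between libraries of a group. Both ratios over Nr0b1 were larger after IAA. The choice of Nr0b1 by its fall favoured this in advance, so nothing is read from it.

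Counted over single peaks, 11 of the 13 receptor peaks were called lower after IAA by limma (Benjamini-Hochberg adjustment, threshold 0.05), beside 68.2% of all 26457 tested peaks. In 12 of the 13 every IAA value lay below every uninduced value, beside 71.2% of tested peaks. When the median peak of every library was set to the same level, the count fell to 3 of 13, namely Esrrb peak 4, Nr5a2 peak 3 and the Nr0b1 peak, beside 1.97%. Nothing is read from these counts, since the genes were chosen with the same contrast known. In addition, the authors called peaks on pooled uninduced reads alone, which favours lower IAA values at receptor peaks and all other peaks alike. This holds for every count of lower or higher peaks and genes given here, and the size of its effect was not tested. The median log2 change was -0.72 over the 13 peaks and -0.55 over all tested peaks, on the scale log2(RPKM + 0.1) used for single peaks from here on.

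**Figure D2:**
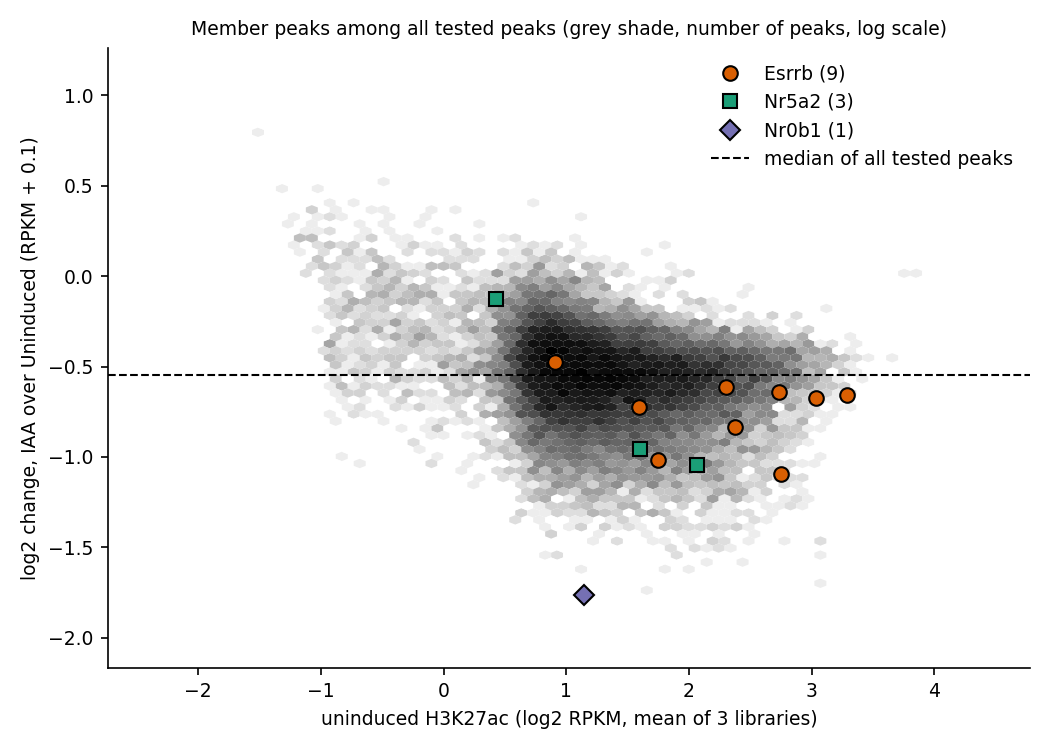
Uninduced H3K27ac (x axis, log2 RPKM, mean of 3 libraries) against the log2 change after IAA (y axis, RPKM + 0.1) for the 26457 tested peaks, shown as grey density on a log shade, with the 9 Esrrb, 3 Nr5a2 and 1 Nr0b1 peaks on top and the median of -0.55 dashed. The Nr0b1 peak lies at the lower edge at -1.76, and the Esrrb peaks run to the right edge, where levels were highest.

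Esrrb, the activator with the largest domain, had its H3K27ac spread over 9 peaks of 349 to 2065 bp that covered 8130 bp in all. The highest was peak 8 (chr12:86502163-86504227, intron 3, OCT4-marked), with 10.2, 9.35 and 9.67 RPKM uninduced and 6.70, 6.67 and 5.20 RPKM after IAA, and it stood above 99.7% of tested peaks. Its log2 change was -0.66 ± 0.15 (SE), which is 0.10 beyond that of the median peak. The neighbouring peak 9 (chr12:86505030-86506086, over exon 4) held 8.42, 8.13 and 8.04 RPKM before and 6.13, 5.69 and 3.82 RPKM after, a log2 change of -0.67. In both peaks the groups were apart, although the IAA values of peak 9 were widely spread.

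The largest Esrrb change was at peak 4 (chr12:86470085-86470908, OCT4-marked), which covers exon 2 and the annotated start of a shorter transcript, Esrrb-206. It had 7.52, 6.18 and 6.52 RPKM uninduced and 3.66, 3.43 and 2.35 RPKM after IAA. All IAA values lay far below the uninduced ones, and the log2 change of -1.09 ± 0.17 ranked 985 among the 26457 tested peaks. Peak 3 (intron 1, no OCT4 mark) came next, with 3.04, 3.99 and 3.03 RPKM before, 1.51, 1.91 and 1.41 RPKM after and a log2 change of -1.02 ± 0.18. Its neighbour, peak 2, at a distance of 342 bp, had 2.76, 3.24 and 3.04 RPKM before and 2.44, 1.95 and 1.17 RPKM after, a log2 change of -0.72. Peak 2 was thus separated by a smaller margin than peak 3, and without IAA replicate 3 its log2 change was -0.44.

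Between these lay peak 5 (intron 2), with 5.29, 5.25 and 5.01 RPKM before and 3.88, 3.25 and 1.85 RPKM after, and a log2 change of -0.83. In intron 3, peak 6 had 5.38, 4.57 and 4.82 RPKM before and 3.61, 3.82 and 2.31 RPKM after, and the OCT4-marked peak 7 had 7.33, 6.47 and 6.18 RPKM before and 5.28, 4.33 and 3.31 RPKM after. Their log2 changes, -0.62 and -0.64, were close to the -0.55 of the median tested peak. Without IAA replicate 3 the log2 change was -0.53 at peak 5 and -0.40 at peak 6. Peak 1, the lowest Esrrb peak and the most isolated of the 9 at 58249 bp from the next peak, had 2.26, 1.49 and 1.89 RPKM before and 1.33, 1.49 and 1.13 RPKM after. Its groups met near 1.49 RPKM, where the lowest uninduced and the highest IAA value stood side by side, and it was not called lower.

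**Figure D3:**
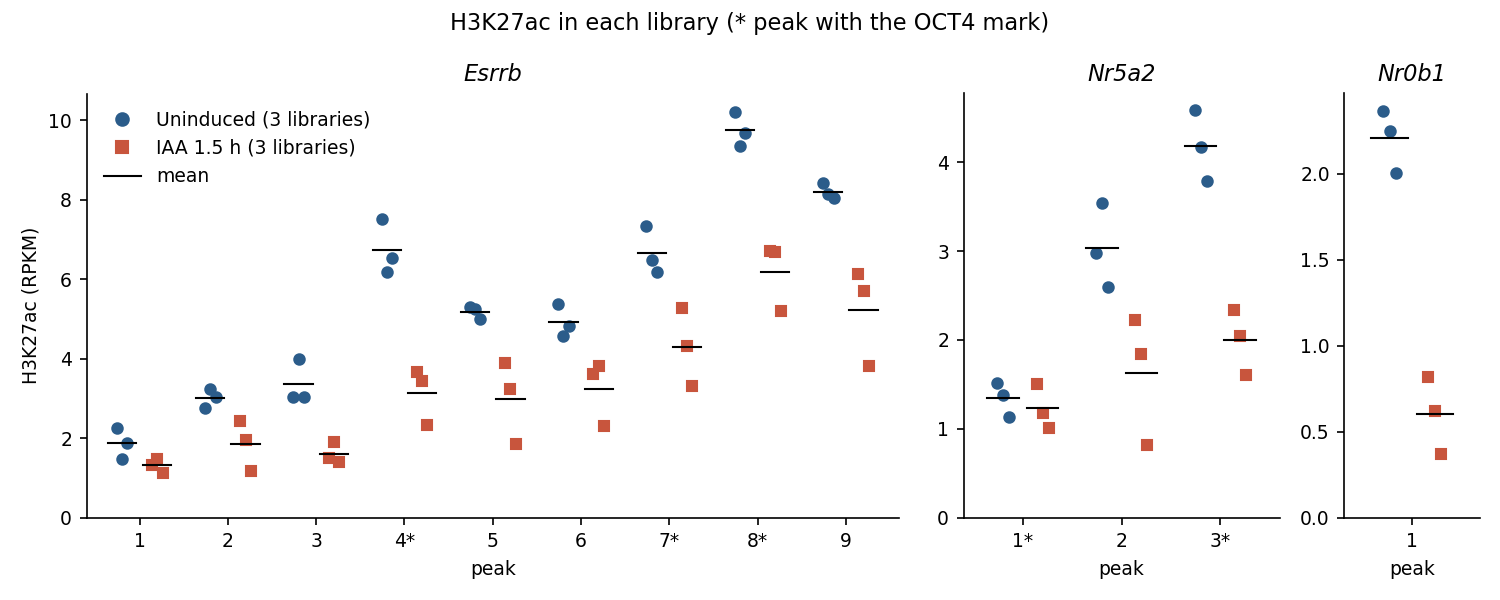
H3K27ac (y axis, RPKM, from 0 and on its own scale for each gene) in each of the 3 uninduced and 3 IAA libraries for every peak of Esrrb, Nr5a2 and Nr0b1, with lines at the group means and an asterisk for the OCT4 mark. The groups are apart at most peaks, Esrrb peak 8 reaches 10.2 RPKM, and Nr5a2 peak 1 is the place where the values of the groups intermingle.

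The Esrrb and Nr5a2 peaks were not at the outermost annotated starts. Of the 5 distinct Esrrb transcript starts, the 3 most upstream, which include that of the transcript Esrrb-203, lay 34555, 25358 and 25597 bp from the nearest peak. The start of Esrrb-206 was inside peak 4 and that of Esrrb-205 was 182 bp from peak 8. Of the 6 Nr5a2 starts, the outer 2 lay 7048 and 7116 bp from the nearest peak, and the other 4 were within 299 bp of one. The single Nr0b1 start was inside its peak. Peaks were called by the authors on pooled uninduced reads, so acetylation below their calling threshold at the outer starts was not measured here.

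**Figure D4:**
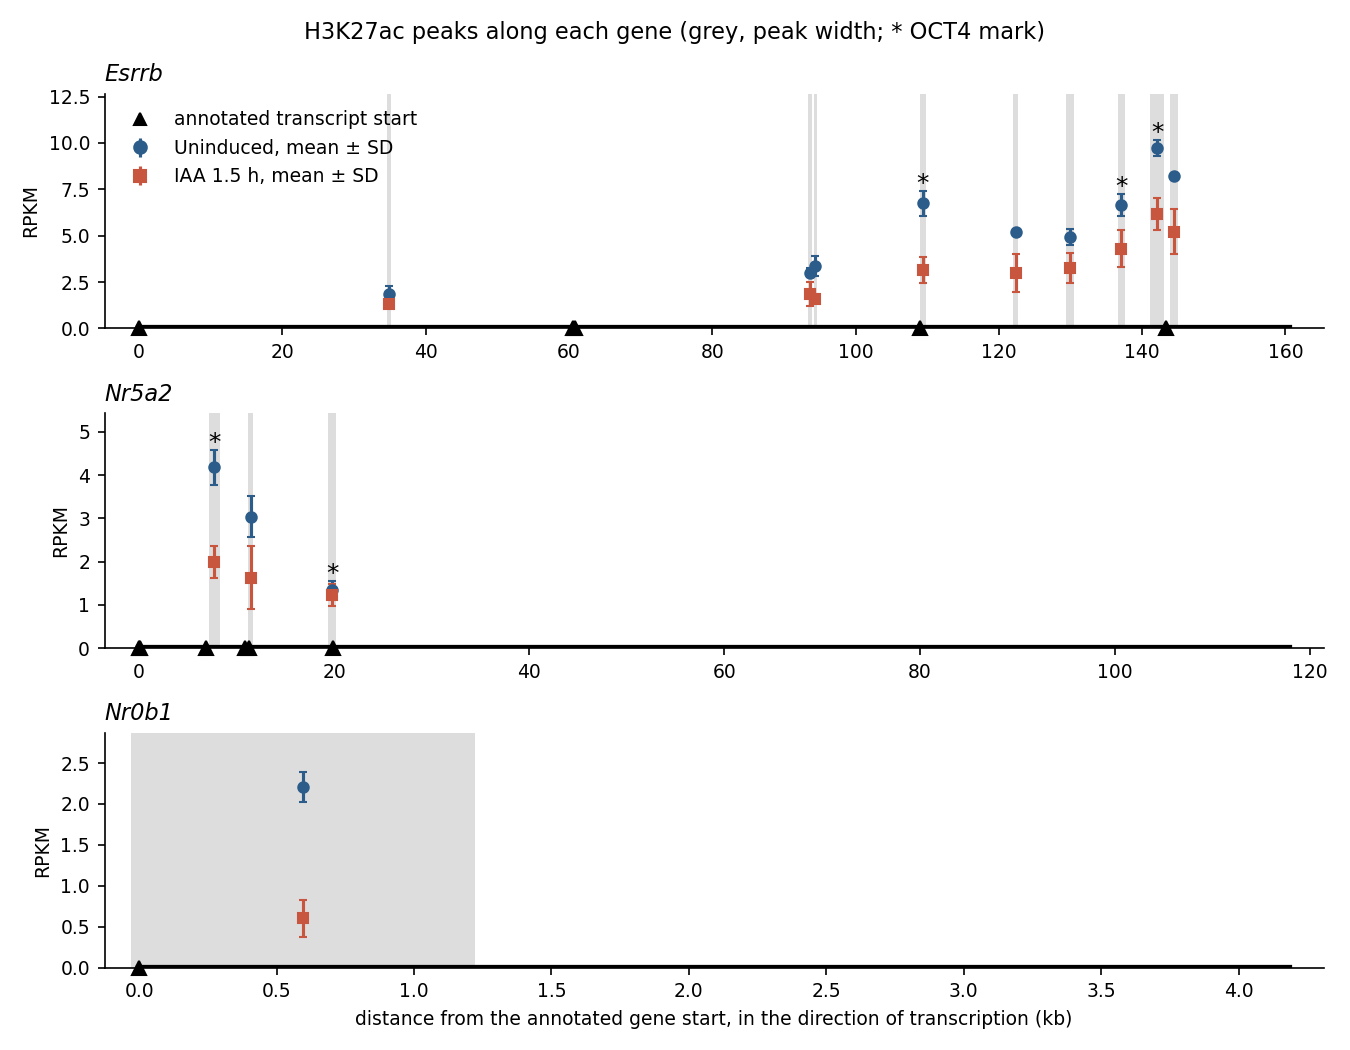
Mean H3K27ac ± SD (y axis, RPKM) of each peak in 3 uninduced and 3 IAA libraries against distance from the annotated gene start (x axis, kb, in the direction of transcription), with grey bands for peak widths, triangles for annotated transcript starts and asterisks for the OCT4 mark. Esrrb peaks crowd into the downstream part of the gene, Nr5a2 peaks are centred within its first 20 kb, and the Nr0b1 peak covers its start.

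Nr5a2 had 3 peaks that covered 2479 bp, and their log2 changes spanned a wider range than those of the Esrrb peaks. Peak 3 (chr1:136952180-136953332, intron 1, OCT4-marked) lay 298 bp from an annotated transcript start. It held 4.58, 4.17 and 3.79 RPKM uninduced and 2.34, 2.04 and 1.60 RPKM after IAA, with a log2 change of -1.04 ± 0.17. Peak 2 (chr1:136948737-136949263, exon 2, no OCT4 mark) held 2.97, 3.54 and 2.60 RPKM before and 2.22, 1.84 and 0.821 RPKM after, a log2 change of -0.95 ± 0.26. The groups did not overlap in either peak, but the IAA values of peak 2 were widely spread, and without IAA replicate 3 its log2 change was -0.55.

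Peak 1 of Nr5a2 (chr1:136940255-136941053, OCT4-marked, over coding exon 5) was the exception. It held 1.52, 1.38 and 1.13 RPKM uninduced and 1.50, 1.18 and 1.01 RPKM after IAA, and the groups overlapped. Its log2 change of -0.13 ± 0.22 was smaller than its standard error, and 95.5% of tested peaks had a larger fall. Relative to the median peak it stood 0.43 higher after IAA. Its uninduced level was low, above 6.38% of tested peaks.

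The division of reads inside a gene shows the same differences without any scaling between libraries. Of the reads in Esrrb peaks, peak 4 took 10.9%, 9.82% and 10.3% in uninduced libraries and 8.02%, 7.91% and 7.59% after IAA. Peak 8 took 37.6% ± 0.552 before and 39.1% ± 2.73 after (SD, n = 3 in each group), which overlapped. Of the reads in Nr5a2 peaks, peak 1 took 15.0%, 14.2% and 13.6% before and 23.7%, 22.1% and 26.2% after, while peak 3 went from 64.4% ± 2.23 to 56.1% ± 3.401. The shares of Esrrb peak 4, Nr5a2 peak 1 and Nr5a2 peak 3 did not overlap between groups. Those of Esrrb peak 4 and Nr5a2 peak 3 were smaller after IAA, and that of Nr5a2 peak 1 was larger. Shares within a gene sum to a whole, so the changes of its peaks are not independent. The Nr5a2 shares rest on 107 to 319 reads in a library and those of Esrrb on 883 to 2240.

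**Figure D5:**
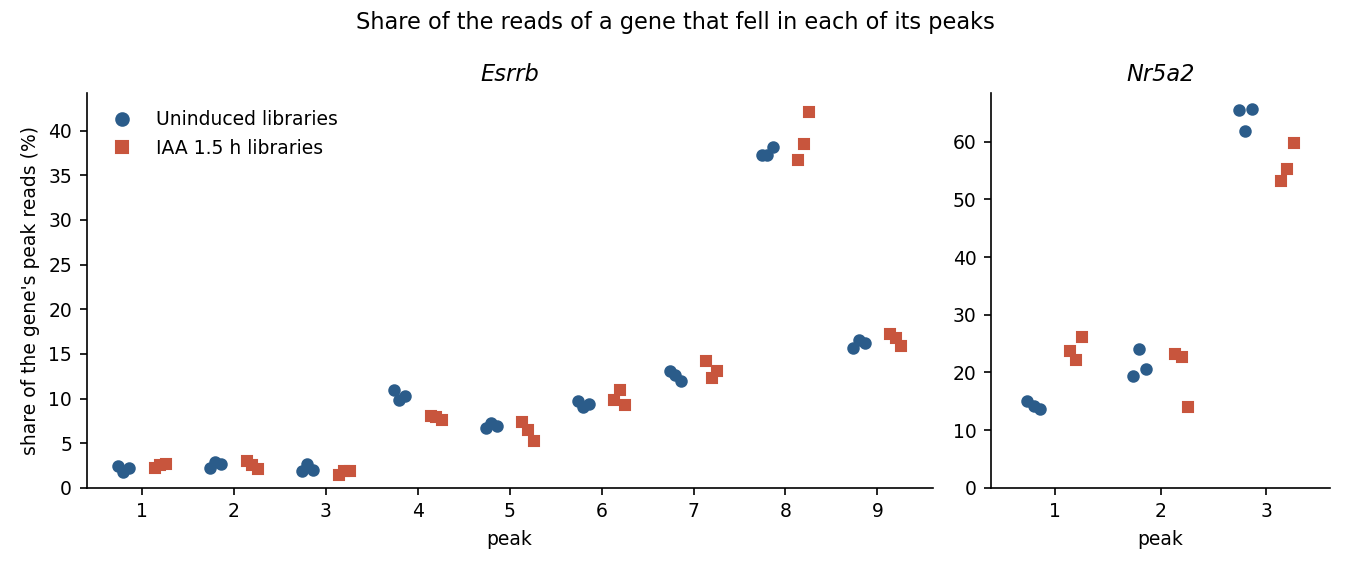
Share of the reads of Esrrb (left) or Nr5a2 (right) that fell in each of its peaks (y axis, %, from 0), with 1 point for each of 3 uninduced and 3 IAA libraries. Esrrb peak 4 drops from about 10.3% to 7.84% and Nr5a2 peak 1 rises from 14.3% to 24.0% on average, while Esrrb peak 8 stays the largest share throughout.

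Nr0b1, the corepressor, had 1 peak of 1251 bp (chrX:86191735-86192985) that covers the transcript start and coding exon 1 and carried no OCT4 mark. Its nearest neighbour among all peaks was 389862 bp away, the most isolated position of the 13. Behind its values stood 117, 89 and 97 reads before and 35, 28 and 16 reads after IAA. At 16 reads, the exact 95% Poisson interval of the value of 0.369 RPKM in IAA replicate 3 ran from 0.211 to 0.599 RPKM, which covers counting error alone, and it lay below the 2.003 RPKM of the lowest uninduced library. The log2 change of -1.76 ± 0.25 ranked 13 among the 26457 tested peaks, which the choice of the gene by its fall favoured. Relative to the median peak the log2 change was -1.21. On the unshifted scale the value was -1.50 without IAA replicate 3.

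The OCT4 mark did not sort the receptor peaks by their change. The 5 marked peaks had log2 changes of -1.09 to -0.13 with a median of -0.66, and the 8 unmarked peaks had -1.76 to -0.47 with a median of -0.78. Across all tested peaks the medians were -0.71 for the 4662 marked and -0.52 for the 21795 unmarked peaks. The unmarked set of 8 holds the Nr0b1 peak and 6 of the 9 Esrrb peaks.

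Matches to 4 motifs were searched on both strands in the whole length of the 13 peaks. ATGCNAAT was found in Esrrb peak 9 and Nr5a2 peak 1, TTGTNATGC in Esrrb peak 2, Nr5a2 peak 1 and Nr5a2 peak 2, CAAGGTCA in Esrrb peak 8, and TTCCNGGAA, the STAT motif, in none. Over the whole length of all 31131 peaks these motifs occurred in 5.98%, 1.43%, 6.14% and 3.13% of peaks, in the order given. In the central 300 bases, where peaks are compared at the same length, they occurred in 2.24%, 0.498%, 2.07% and 1.11% of all windows and in 1, 1, 0 and 0 of the 13 receptor windows. The Nr5a2 peak 1 matches share 4 bases and run together as TTGTCATGCTAAT in the sequence printed above, in the receptor peak with the smallest difference between conditions. The Nr0b1 peak held no match to any of the 4.

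None of the 5 RefSeq promoters of the 3 genes (300 bases around a transcript start) held any of those 4 motifs. AGGTCA, added after the sequences were seen, was present in 2 of the 5, an Nr5a2 and the Nr0b1 promoter, and in 16.3% of 32851 mouse promoters. Only the Nr0b1 promoter met a peak, by 90 bases, and its half-site ended 110 bp before the first exon and 80 bp outside the peak. A match describes letters only.

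Genes with profiles most like those of the receptors were ranked by the root-mean-square difference of log2 RPKM over the 6 libraries, each gene centred on its own mean. For Esrrb they were Trak1, Usp48 and Oas1g at 0.02 to 0.03 among 6715 genes with at least 3 peaks, and for Nr5a2 they were Ildr1, Fam25c and Prr5l at 0.04 to 0.05. Nr0b1 had no near match: the closest of 14219 genes, Nav2, Atp2b3 and Bach2, stood at 0.26 to 0.31. Nav2 went from 2.39 to 0.714 RPKM, a log2 change of -1.75. With 6 libraries in 2 groups, likeness here is mainly a like size of change.

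Among the other nuclear receptors, 30 of 46 had a tested peak, and their log2 changes ran from -1.04 at Thrb (thyroid hormone receptor beta) to -0.31 at Nr1d2 (REV-ERB beta) with a median of -0.56, beside -0.54 over all 14220 genes. Of these 30, 24 had every IAA value below every uninduced value, beside 84.6% of all genes, and 53 of their 84 peaks were called lower by limma and 0 higher, beside 68.2% of all peaks. A larger fall than that of Esrrb was seen at 4 of them, and a larger one than that of Nr5a2 at Thrb and Nr2f2 (COUP-TFII, -0.91). A larger one than that of Nr0b1 was seen at 0, which the choice of Nr0b1 by its fall favoured in advance. The highest uninduced level of the 30 was 4.50 RPKM at Rxrb, a dimer partner of many receptors, and the lowest was 0.673 RPKM at Nr3c2, the mineralocorticoid receptor. Esrrb, at 6.59 RPKM, was above all of them. The OCT4 mark was on 8 of their 84 peaks and on 5 of the 13 receptor peaks above, beside 17.6% of all tested peaks. It was on 14 of the 64 peaks of the coregulators and 28 of the 63 peaks of the naive network partners described below. The closest relative of Esrrb with a tested peak, Esrra, changed by -0.56, and Nr0b2 (SHP), the relative of Nr0b1, went from 2.70 to 2.16 RPKM, a log2 change of -0.33. For these genes and those listed below, peaks were also taken up to 20 kb from the gene body. Such peaks may belong to neighbouring genes, and a peak can count for more than 1 gene.

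Coregulators that nuclear receptors recruit were measured at 11 of 12 genes. Their log2 changes ran from -0.85 at Ppargc1b (a coactivator of energy metabolism genes) to -0.44 at Kdm1a (the LSD1 demethylase) with a median of -0.58, and all 11 had groups apart, beside 84.6% of all genes. Ncoa3, a coactivator of Esrrb in ESCs, went from 4.09 ± 0.0286 to 2.42 ± 0.262 RPKM, a log2 change of -0.76 that is close to the -0.72 of Esrrb. Ncoa1 had the highest uninduced level, 5.94 RPKM, and Ppargc1b the lowest, 1.73 RPKM. Of their 64 peaks 56 were called lower and 0 higher, beside 68.2% of all tested peaks called lower.

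The naive network partners of the receptors, 13 of 13 measured, had a median log2 change of -0.95, between -1.39 at Sall4 and -0.40 at Pou5f1, and 59 of their 63 peaks were called lower and 0 higher, beside 68.2% of all tested peaks called lower. Sall4, a zinc finger factor, also had the highest uninduced level, 7.39 RPKM, and Gbx2, a homeobox factor downstream of LIF, the lowest, 1.86 RPKM. Of the 13, 9 had a larger fall than Esrrb and Nr5a2. None had a larger one than Nr0b1, which the choice of Nr0b1 by its fall among pluripotency genes fixed on this scale, whereas with a pseudocount of 1 Sall4 at -1.13 was beyond Nr0b1 at -1.01. This list and those of the receptors and coregulators are descriptions beside the background, and no difference between lists was tested.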

How the data were processed

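H3K27ac ChIP-seq was done on 3 uninduced and 3 IAA-treated immunoprecipitations. Per the labels and the study's methods, reads were aligned to mm10 (GRCm38) with Bowtie2 2.3.4.3 and deduplicated, peaks were called with MACS2 on pooled uninduced reads, and DiffBind counted reads. The deposited values are RPKM per peak, made by the authors in 1 file for each library, with a table of group means and the OCT4 mark. In every library 100% of values were whole multiples of 1 read within 0.01 reads, which gave the library sizes.

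The members and lists were chosen with earlier results of these data known. Peaks were assigned to every gene whose body, extended by 20 kb on each side, they overlapped, with GENCODE annotation on GRCm38. Gene levels were length-weighted mean RPKM. Peaks of at least 0.5 RPKM in either group mean were fitted in limma 3.58.1 (R 4.3.3) on log2(RPKM + 0.1) over all 26457, with trended robust variance and Benjamini-Hochberg adjustment, after a check on simulated data. RPKM is no count, so no count model was used. P-values measure the spread between immunoprecipitations, which may be technical.

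The text names all peaks of the 3 genes, the 3 genes most like each, and the extremes of change and level in each list. Nr2f2, Esrra, Nr0b2 and Ncoa3 were named after their values were seen. Peak starts were taken as counted from 0 and are printed counted from 1. Motifs and promoters came from GRCm38.p6 and RefSeq. Replicates were compared by chi-square per degree of freedom, 1.02 to 1.15 among uninduced and 1.16 to 1.63 among IAA libraries. The closest pair differed in library size and was kept as 2 samples. Replicate numbers were not used to pair the libraries in the main fit. Correlations of same-numbered libraries were -0.09 to -0.01, which does not exclude a shared batch or culture. Alternatives tried were the window, weighting, pseudocount, threshold, scaling, limma settings, the replicate block and dropping single libraries.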

Additional observations from a re-analysis of the deposited data

How the results depend on the processing

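The gene values of Esrrb, Nr5a2 and Nr0b1 kept their direction under the other weightings, pseudocounts, centring and left-out libraries, while quantile normalization, the replicate block and limma settings were run on peaks alone. The other windows and thresholds took the same peaks, so their values were the same by construction. Equal weighting could likewise not change the value of Nr0b1, which had a single peak. Centred on the median peak, the log2 changes were -0.14, -0.30 and -1.36, and with a pseudocount of 1 they moved to -0.60 at Nr5a2 and -1.01 at Nr0b1. Leaving out 1 library gave -0.83 to -0.55 at Esrrb, -1.04 to -0.68 at Nr5a2 and -2.20 to -1.63 at Nr0b1. Of the 13 receptor peaks, 11 were called lower, 3 after centring on the median peak and 2 after quantile normalization, and 11 to 12 with 1 library left out. Esrrb peak 1 and Nr5a2 peak 1, neither called, turned to 0.08 and 0.43 after centring and to 0.09 and 0.46 after quantile normalization. Esrrb peak 1 was called lower without uninduced replicate 2, with a pseudocount of 1 and without limma's trended robust variance. Of all tested peaks, 18048 were called lower, 520 after centring and 447 after quantile normalization, both of which remove a shift common to all peaks by construction. Leaving out 1 library gave 10378 to 19611, the lowest without uninduced replicate 1. With the replicate block 11 receptor peaks and 18898 of all peaks were called. Depth limits the low peaks most: 15 to 16 reads lie behind the lowest values of Nr5a2 peak 2 and Nr0b1.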

Other observations

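Beyond the windows of 20 kb, 6 peaks lay within 150 kb of Esrrb or Nr5a2 and 0 within 150 kb of Nr0b1. Downstream of Nr5a2, 3 peaks over the noncoding gene Platr22, at 134 to 146 kb, had uninduced means of 2.94, 2.91 and 2.73 RPKM and log2 changes of -0.51, -0.75 and -0.54. The second of these carried the OCT4 mark. A low peak over Gm29718, 48.9 kb from Nr5a2, had 0.612, 0.255 and 0.625 RPKM uninduced and 0.414, 0.726 and 0.524 RPKM after IAA, with overlapping groups and a log2 change of 0.18. Upstream of Esrrb, a peak over Gpatch2l changed by -0.29 and a peak over 4732487G21Rik by -0.60 on the log2 scale. All 6 were found after the values were seen.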
